A study of Mus musculus with 8 samples.

Results

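The probes described here are 37032 of the 60915 non-control probes of a mouse expression array, or 60.8%, that carry a manufacturer identifier and no gene name and that are not rows of the table of processed values deposited with the study. They were chosen by 4 conditions: the spot is not a control, the probe is absent from the deposited table, its name holds neither the word for long intergenic RNA nor the word for a negative control, and its systematic name repeats its probe name. The deposited table holds 22032 probes (36.2%), and the remaining probes are 1836 named as long intergenic RNAs and 15 named by a RefSeq accession. Deposited probes carry manufacturer identifiers as well. The word unnamed below therefore marks the 37032 probes outside that table and no contrast in naming. The RefSeq table lists genes by symbols and accessions, so none of the 37032 manufacturer identifiers could be matched to a gene there. This says nothing about which genes the probes target. Each is given by its identifier and no role is assigned to it. Their identifiers fall into a series with the prefix ASMM10P (36109 probes) and one with the prefix ASMM10UP (923 probes).

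The arrays measured hippocampal RNA of 7-day-old mice. The propofol group (4 arrays) was injected into the peritoneum with propofol at 50 mg/kg, and the vehicle group (4 arrays) with intralipid, the fat emulsion in which propofol is dissolved, also labelled 50 mg/kg. The exposure lasted 3 h and tissue was taken after a further 3 h of washout. Strain, genotype and sex are not in the labels, nor is the number of animals behind each array, so p-values measure the spread between these samples, which may be partly technical.

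As background, propofol is an intravenous anaesthetic that strengthens inhibitory signalling through GABA-A receptors, and the hippocampus of a mouse pup is still forming synapses. An expression array reads each transcript by the brightness of a short probe fixed at one spot, and a design of this size carries coding and long noncoding transcripts side by side. Ribosomal RNA had been removed and the RNA was primed along its length with random as well as oligo(dT) primers, per the labels, so transcripts without a poly(A) tail could be labelled too. In tissue RNA of this kind, fewer cells of a type and less RNA per cell cannot be told apart. None of the 27 fixed marker genes of hippocampal, glial, vascular and blood cells had a named probe, so the labelled tissue was not checked against markers here.

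A level is the log2 of the scanner's processed signal minus the 75th percentile of all non-control probes on that array, so a probe at 0 is as bright as that percentile and each step of 1 is a doubling. That percentile lay between 656 and 991 signal units on the vehicle arrays and between 871 and 1006 on the propofol arrays. A probe counts as detected on an array when the scanner software marks it as well above background. Each of the 37032 probes has 1 spot per array, 0.398% of their spot values carried an outlier flag and were dropped, and 0 were saturated. All vehicle arrays lay on one slide and all propofol arrays on another, and the treatment cannot be told apart from the slide below.

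Most of these unnamed probes gave signal in the pup hippocampus. Of the 37032 probes, 22105 (59.7%) were detected on all 8 arrays, 5504 (14.9%) on 2 to 7 arrays, 2515 (6.79%) on 1 array and 6908 (18.7%) on 0 arrays. The deposited table differs in its floor: its least detected probe was detected on 2 arrays, 2780 of its probes (12.6%) were detected on 2 to 7 arrays and 19252 (87.4%) on all 8. The 9423 probes detected on 0 or 1 arrays (25.4%) therefore have no counterpart in the deposited table, and absence from that table is not independent of detection. Low detection alone does not set the probes apart from the table, since 27609 of them (74.6%) were detected on 2 or more arrays. Of all probes in both classes detected that often, 55.6% are absent from the table, against 62.7% of both classes at any detection.

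Detection varied from array to array in the same order of size as between the groups. The probes were detected at 69.3%, 72.6%, 70.4% and 75.6% on vehicle replicates 1 to 4, with a mean of 72.0% ± 2.78 (SD, n = 4). On propofol replicates 1 to 4 they were detected at 64.8%, 64.1%, 67.0% and 70.7%, with a mean of 66.6% ± 2.98 (SD, n = 4). Propofol replicate 4 lay above vehicle replicates 1 and 3, so the groups overlapped. The deposited probes moved the same way, from 96.9% ± 1.80 to 93.1% ± 2.67 (SD, n = 4 each). Restricted to probes detected on 2 or more arrays and weighted to the same distribution of mean level, 95.03% of the unnamed probes were detected per vehicle array against 94.88% of the deposited probes, and both stood at 88.6% per propofol array. The array's own floor, the first percentile of the levels detected, lay at −5.09, −5.40, −5.49 and −5.49 on vehicle replicates 1 to 4. On propofol replicates 1 to 4 it lay at −4.50, −4.89, −5.20 and −5.11. Propofol replicates 1 and 2 had the highest floors, −4.50 and −4.89, and the lowest detection, 64.8% and 64.1%. Vehicle replicates 3 and 4 both had a floor of −5.49 and detected 70.4% and 75.6%. The part of the floor in the lower detection was not tested. Vehicle replicate 4 was the only array that detected 931 of the probes, while each of the other arrays was alone for 148 to 307.

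The unnamed probes were dim as a class but made up 75 of the 100 brightest probes of both classes. Their median level was −3.37, −3.38, −3.52 and −3.34 on vehicle replicates 1 to 4 (mean −3.41 ± 0.08, SD, n = 4). On propofol replicates 1 to 4 it was −3.31, −3.58, −3.60 and −3.33 (mean −3.46 ± 0.16, SD, n = 4), so the propofol arrays lay on both sides of the vehicle arrays. The deposited probes had medians of −1.06 ± 0.07 with vehicle and −1.09 ± 0.03 with propofol (SD, n = 4 each). Averaged over the 8 arrays, the unnamed probes ran from −7.68 to 8.95 with a median of −3.46. Those detected on 2 or more arrays had a median of −2.28, and those detected on 0 or 1 arrays one of −7.14, against −1.08 for the deposited table.

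Only at the very bright end did the order of the classes turn. Above a mean level of 0 there were 6583 unnamed and 8304 deposited probes, above 4 there were 1621 and 1746, and above 8 there were 95 and 39. As shares of each class, 1.34% of the unnamed and 1.65% of the deposited probes lay from 6 to 8. From 8 to 10 these shares were 0.257% and 0.177%. Among the 1000 brightest probes of both classes 596 were unnamed, and among the 100 brightest 75 were. Unnamed probes make up 62.7% of both classes, so only among the 100 brightest did they exceed that share. The unnamed probes, 60.8% of the non-control probes, held 46.8% to 51.2% of the summed processed signal of an array. The deposited probes, 36.2% of them, held 40.6% to 44.3%. The share of the unnamed probes rests on few spots. Their brightest 1%, 370 probes, held 49.2% of the class's signal, against 32.1% in the brightest 1% of the deposited probes. Values are brightness of different probes, which bind their targets unequally, so the order of probes is not an order of transcript amounts.

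The brightest probe, ASMM10P010401, read 9.18, 8.95, 9.00 and 8.66 on vehicle replicates 1 to 4 and 9.12, 8.93, 8.74 and 8.98 on propofol replicates 1 to 4. The groups overlapped over nearly their whole range, and the fitted log2 difference, propofol minus vehicle, was −0.0050 with a standard error of 0.15 (limma, adjusted p = 0.996). The next brightest, ASMM10P037994, had a mean level of 8.88 and a log2 difference of −0.06 with a standard error of 0.12 (limma, adjusted p = 0.936). Over the 8 arrays the first varied within a 1.44-fold range and the second within a 1.18-fold range.

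The identifiers carry structure that the choice of probes did not use. The numbers of the ASMM10P series were cut into bands of 4000 after the data had been seen. In the bands from 12000 to 51999, 65.4% to 74.5% of the unnamed and deposited probes together are outside the table. In the band from 4000 to 7999 only 280 probes are absent from the deposited table against 3720 that are in it. Of those 280 probes, 276 (98.6%) were detected on 0 or 1 arrays and their median level was −6.95, so in that stretch nearly every probe detected on 2 or more arrays is in the table. The band from 0 to 3999 is the opposite case: its 2278 unnamed probes had a median level of −2.35, only 13.0% were detected on 0 or 1 arrays and 74.7% on all 8. In the other bands 21.8% to 28.9% were detected on 0 or 1 arrays and the medians ran from −3.17 to −3.74. The highest number in the deposited table is 55808, and the 2269 unnamed probes of the band from 56000, which ends at 58274, looked like the rest with a median of −3.40 and 61.3% detected on all 8 arrays.

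Probes with neighbouring numbers were nearly unrelated in level. Across 25506 pairs of unnamed probes whose numbers differ by 1, the correlation of mean levels was 0.145, and at a distance of 10 it was 0.051. These are correlations across probes that share the same 8 arrays, given as a description. Position on the array left little trace in level and spread. In 4 equal blocks of its rows the median level ran from −3.52 to −3.41 and the median SD from 0.27 to 0.29. The median log2 difference, propofol minus vehicle, fell block by block from −0.03 in the first to −0.07 in the last, and this was not tested.

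The 923 probes of the ASMM10UP series were dimmer than the rest of the class. Their median level was −5.30 against −3.42 for the ASMM10P series, 41.5% of them were detected on 0 or 1 arrays against 25.04%, and 39.1% on all 8 against 60.2%. Per array, 49.6% to 58.0% were detected with vehicle and 44.3% to 51.2% with propofol, so the groups overlapped here as well. Of this series 466 probes were bright enough to test, and their median SD between arrays of a group, 0.31, was that of other unnamed probes of like level.

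Of the 37032 unnamed probes, 25829 (69.7%) could be tested, meaning that they were detected on at least 4 of the 8 arrays and had at least 2 unflagged arrays in each group. The same filter kept 21201 of the deposited probes (96.2%) and 47777 probes in all. The 11203 unnamed probes left out were nearly all detected on fewer than 4 arrays, so no difference is given for them. A further 58 probes reached 4 arrays but had too few unflagged values, and they are among those left out.

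Replicates of a group lay close together at the typical probe. The pooled SD between arrays of a group had a median of 0.28 on the log2 scale over the tested unnamed probes, with quartiles at 0.20 and 0.43 and with 5% of probes above 0.87. Weighted to the same mean levels, the deposited probes had a median SD of 0.278 against 0.281 for the unnamed ones, and 0.25 without weighting. Spread was largest in dim probes: the median SD was 0.45 at levels from −6 to −4 and 0.28 from −4 to −2. It then stayed between 0.23 and 0.24 in the bands from −2 to 8, and was 0.19 from 8 to 10. In every band from −2 up to 8 it was slightly larger in the unnamed probes than in the deposited ones, for example 0.24 against 0.20 from 4 to 6. In the 2 bands from −6 to −2 it was slightly smaller. An SD over 0.5 was seen in 4826 unnamed probes (18.7%) and 3301 deposited probes (15.6%), and one over 1 in 859 (3.33%) and 530 (2.50%).

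Which array stood lowest differed between the classes. Among the 25305 tested unnamed probes with a value on all 8 arrays, propofol replicate 3 was the lowest array for 22.5%, against 10.3% of the deposited probes. Vehicle replicate 3 was the lowest for 17.0% of the unnamed probes and 25.8% of the deposited ones. The typical unnamed probe lay 0.12 below its own mean on propofol replicate 3 and the typical deposited probe 0.04 above it, so that array shifted the classes apart. Without propofol replicate 3 the median log2 difference of the unnamed probes between groups, −0.06 with all arrays, was −0.02.

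A few probes split the arrays sharply, and none of them by treatment. Probes were taken as split when a gap of at least 4-fold separated the arrays into a high and a low set, a rule chosen after the data had been seen. Of 26976 unnamed probes detected on 2 or more arrays with a value on all 8, 322 (1.19%) were split, against 191 of 21630 deposited probes (0.883%). A single array stood apart in 245 of them, high in 204 and low in 41, and 0 of the 322 separated the 4 propofol arrays from the 4 vehicle arrays. The array high alone was propofol replicate 1 for 62 probes, propofol replicate 2 for 42 and vehicle replicate 3 for 40. Vehicle replicate 3 was also low alone for 30. Among the split deposited probes a single array stood apart in 151, high in 105 and low in 46. The same 3 arrays were high alone for 24, 18 and 27 of them, and vehicle replicate 3 was low alone for 42.

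The probes chosen for their large spread within groups set vehicle replicates 2 and 3 apart from the other 6 arrays. Probe ASMM10P002955 read 2.43, −3.00, −5.36 and 2.41 on vehicle replicates 1 to 4 and 2.34, 2.48, 2.43 and 2.46 on propofol replicates 1 to 4. Probe ASMM10P044290 read 2.46, −3.38, −5.36 and 2.00 with vehicle and 2.39, 2.59, 2.34 and 2.54 with propofol. Both were detected on all 8 arrays, and on the 6 arrays where it was bright the first lay between 2.34 and 2.48. Their log2 differences of 3.30 and 3.54, propofol minus vehicle, had standard errors of 1.63 and 1.62 (limma, adjusted p = 0.671 and 0.645), and without vehicle replicates 2 and 3 the differences were 0.0018 and 0.23. These are the probes with the largest spread between replicates among those detected on all 8 arrays, and their mean difference is that of 2 arrays.

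In all, 7 unnamed probes split the arrays in this way, 5 of them low on vehicle replicates 2 and 3 and 2 of them high there, beside 4 deposited probes. The following probes were named after their values were seen. ASMM10P044291, whose number follows that of ASMM10P044290, read 0.33, −2.56, −3.24 and 0.12 with vehicle and 0.34, 0.23, 0.45 and 0.61 with propofol, so the neighbouring probes were low on the same arrays. ASMM10P045975 and ASMM10P045976, also with consecutive numbers, ran the opposite way. The first read −5.44, −1.04, −0.46 and −5.04 with vehicle and −4.92, −6.16, −6.44 and −5.73 with propofol. The second read −7.49, 0.77, 1.54 and −7.94 with vehicle and −4.21, −6.41, −7.60 and −7.54 with propofol. Each was detected on 3 arrays and was not tested. The labels give vehicle replicates 2 and 3 no attribute that the other vehicle arrays lack, and why these arrays stood apart was not tested.

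Another set of 22 unnamed probes, and 9 deposited ones, was high on vehicle replicates 2 and 3 and on propofol replicates 1 and 2. The median level of these 22 probes was −1.01, 2.76, 2.86 and −0.46 on vehicle replicates 1 to 4 and 3.64, 2.27, −0.45 and −0.25 on propofol replicates 1 to 4. The lowest adjusted p among those tested was 0.940 (limma), since each group holds arrays of both kinds. Why these arrays were high was not tested.

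No unnamed probe passed the test between propofol and vehicle. At an adjusted p under 0.05 (limma, Benjamini-Hochberg over 47777 tested probes) 0 of 25829 were called, against 0% of all tested probes. The lowest adjusted value was 0.196. At an unadjusted p under 0.05 there were 2164 (8.38%), against 7.86% of all tested probes and 7.66% of deposited probes of like level. A looser rule asked for an unadjusted p under 0.05 and at least a 1.5-fold difference. It took 368 unnamed probes as higher with propofol (1.42%, against 1.31% of all tested probes) and 414 as lower (1.60%, against 1.36%). Deposited probes of like level stood at 1.24% higher and 1.54% lower, so the unnamed probes are close to the background in both directions. Without vehicle replicate 3 the lower count was 651 (2.52%, against 2.27% of all tested probes), without propofol replicate 1 it was 689 (2.67%, against 2.18%) and without propofol replicate 4 it was 673 (2.61%, against 2.17%). The balance of directions depended on the processing: quantile normalization gave 458 higher and 278 lower, normexp background correction 182 and 29, and probes detected on all 8 arrays 331 and 147. All tested probes leaned the same way under these settings, at 1.62% higher and 0.898% lower, 0.684% and 0.147%, and 1.34% and 0.642%.

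The 4 propofol values lay all above or all below the 4 vehicle values in 1494 unnamed probes (5.78%), against 5.42% of all tested probes and 4.90% of deposited probes of like level. Of these, 658 were higher with propofol (2.55% of the tested unnamed probes) and 836 lower (3.24%). The split by direction was not counted for the other probes, so it is not read as particular to the class. Over all tested unnamed probes the mean was higher with propofol in 10583 (41.0%), against 43.5% of all tested probes and 47.1% of the deposited ones. The median log2 difference was −0.06, against −0.04 for all tested probes and −0.04 for deposited probes of like level. It was −0.09 without propofol replicate 1, −0.04 without propofol replicate 2 and −0.02 without propofol replicate 3. Scaled to the deposited probes it was −0.11 (−0.09 for all tested probes), scaled to probes detected on all arrays −0.09 (−0.07), and with no detection filter −0.02 (−0.02). Its size is small beside the median SD of 0.28. Of the probes, 1% lay below −0.81 and 1% above 0.83, against −0.79 and 0.81 for all tested probes. A mean difference of 2-fold or more, at any p, was seen in 153 probes higher with propofol (0.592%) and 103 lower (0.399%). These counts were not made for the other probes, so they are not read as particular to the class.

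Direction went with brightness among all but the brightest probes. Of the 414 probes taken as lower, 287 had a mean level from −6 to −4, where 77 of the 368 taken as higher lay. From −4 to −2 there were 125 higher and 93 lower, from −2 to 0 there were 125 and 22, and from 0 to 2 there were 25 and 9. Above a level of 4 there were 4 higher and 0 lower. The median log2 difference ran the same way, from −0.17 at −6 to −4 through −0.05 at −2 to 0 to 0.08 at 4 to 6, but it was 0.07 at 6 to 8 and −0.04 at 8 to 10. The median of the deposited probes showed the same course, from −0.16 through −0.05 to 0.12 and then 0.08 and −0.02. At −6 to −4, 127 deposited probes were lower against 42 higher. From −4 to −2 they had 59 higher and 59 lower, from −2 to 0 they had 72 and 25, and from 0 to 2 they had 46 and 9. The part of the array floors given above in the lower calls of the dim band was not tested. The share of unnamed probes at an unadjusted p under 0.05 fell from 11.4% at −6 to −4 to 0.402% at 6 to 8, and it was 0 of 95 above 8. In the deposited probes it fell as well, from 9.92% to 2.20% over the same bands, and it was 0 of 39 from 8 to 10.

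Among probes detected on all 8 arrays and at or above the median level of the tested class, the pair with the smallest p in each direction is given. These 4 probes were picked from 12914 candidates. The choice by p favours groups that do not overlap and large fold differences, so their separation is no support for a change. Their intervals are not adjusted for the choice. ASMM10P015584 read −0.74, −0.91, −1.27 and −1.13 on vehicle replicates 1 to 4 and 0.36, 0.73, 0.88 and 1.25 on propofol replicates 1 to 4. Every propofol value lay above every vehicle value, with a fitted 3.53-fold difference (95% interval 2.55 to 4.90), a log2 difference of 1.82 ± 0.21 (SE) and an adjusted p of 0.196 (limma). ASMM10P041006 read −0.90, −0.79, −0.68 and −1.03 with vehicle and 0.18, 0.18, 0.15 and 0.55 with propofol. It was 2.17-fold higher with propofol (95% interval 1.73 to 2.72) at an adjusted p of 0.243 (limma), and propofol replicate 4 stood above the other 3.

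In the other direction, ASMM10P039419 read 1.03, 0.75, 1.02 and 0.58 with vehicle and −0.57, −0.48, −0.83 and −0.69 with propofol. All 4 propofol arrays were lower, with a log2 difference of −1.49 ± 0.15 (SE), which is 2.81-fold, at an adjusted p of 0.196 (limma). ASMM10P048920 read −1.40, −1.47, −1.31 and −0.95 with vehicle and −2.53, −2.78, −2.58 and −2.15 with propofol. It was 2.34-fold lower with propofol at an adjusted p of 0.268 (limma). With another background correction ASMM10P015584 and ASMM10P039419 reached an adjusted p of 0.0286, and these were the only unnamed probes to pass under any alternative tried. None of the 4 probes is paired with a gene.

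For most of the tested class the interval of the difference between groups, which is also that between slides, lay within 2-fold. The 95% interval of the fold difference had a median half-width of 1.36-fold, against 1.34-fold for all tested probes. It lay within 1.5-fold in either direction for 10642 unnamed probes (41.2%), within 2-fold for 20805 (80.5%) and within 4-fold for 25167 (97.4%). The same shares over all tested probes were 44.6%, 82.1% and 97.7%, so the unnamed probes were close to the background. A difference larger than 2-fold is thus outside the interval for most tested unnamed probes, probe by probe and without adjustment.

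Detection itself moved from vehicle to propofol at the floor. Of all 37032 unnamed probes, 121 (0.327%) were detected on every vehicle array and no propofol array, and 0 the other way round, against 158 (0.259%) and 0 of all non-control probes and 26 (0.118%) and 0 of the deposited ones. At least 3 vehicle arrays and at most 1 propofol array detected 1168 (3.15%), against 2.93% of all non-control probes and 2.38% of the deposited ones. The other way round there were 31 (0.084%), against 0.077% of all non-control probes and 0.059% of the deposited ones. The deposited probes are brighter and were not weighted by level here. The 121 probes had a median level of −4.98 with vehicle and −5.69 with propofol, close to the first percentile of detected levels on these arrays. This comparison was not tested. The mean of that percentile over arrays was −5.37 with vehicle and −4.92 with propofol, but the arrays overlapped, since propofol replicates 3 and 4 lay below vehicle replicate 1.

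In the ASMM10UP series, 46 of 466 tested probes (9.87%) had an unadjusted p under 0.05, against 8.06% of deposited probes of like level. By the looser rule 3 were higher with propofol (0.644%, against 1.31% of all tested probes) and 15 lower (3.22%, against 1.36%), and 0 passed the adjusted threshold. Deposited probes of the same dim levels stood at 1.31% higher and 2.08% lower. In the ASMM10P series the same counts were 2118 of 25363 (8.35%), 365 higher (1.44%) and 399 lower (1.57%). Whether the series differ in their response was not tested.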

How the data were processed

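Hippocampal RNA of 4 propofol and 4 vehicle samples, grouped by their titles, was labelled with Cy3 and hybridised to 1-colour Agilent arrays, per the labels' protocols. Agilent Feature Extraction 11.0.1.1 wrote the spot signals, which are intensity values with the background taken off, per the file headers. Values in the deposited table are on the log2 scale, with column medians from 8.66 to 8.80; its normalization is not given in the sources used here, and it served only to decide which probes belong to it. Scanner flags gave detection and outliers.

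Levels were log2 intensity minus each array's 75th percentile, without control and flagged spots. Probes detected on at least 4 of 8 arrays, with 2 unflagged arrays per group, were compared in limma (version 3.58.1, R version 4.3.3; lmFit, then eBayes), with two-sided p-values adjusted by Benjamini-Hochberg over all tested probes. Fold differences are on the scaled log2 scale. Deposited probes were weighted to the unnamed probes' mean levels in bins of 0.5 on the log2 scale, as a description. Probes are named by identifier: in each direction the 2 with the smallest p among those detected on all arrays at or above the class median, the 2 brightest and the 2 of largest spread. The class, lists and tests were chosen with earlier results of these data known. The fit was tested on simulated data. No probe sequences or coordinates are given, and the precision is limited by the number of arrays. Other scalings, a normexp background correction, other filters, a replicate block, array weights and leaving out each array were tried as alternatives.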

Additional observations from a re-analysis of the deposited data

Results flagged for a closer look

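Of 24 groups of 4 values examined, 1 held an array far from the others. ASMM10P041006 read 0.55 on propofol replicate 4, while the other 3 propofol arrays read from 0.15 to 0.18. Chance alone puts about 1 in 20 groups in this state. Without propofol replicate 4 the log2 difference of this probe, propofol minus vehicle, was 1.02 against 1.12 with it.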

How the results depend on the processing

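Over the alternatives, 0 unnamed probes passed an adjusted p of 0.05, except for 2 under the normexp background correction, ASMM10P015584 and ASMM10P039419. The smallest adjusted p ran from 0.0726 to 0.673 when 1 array was left out and from 0.0286 to 0.926 under the other alternatives. The 2164 probes at an unadjusted p under 0.05 became 4459 with no detection filter (12.1%, against 10.2% of all probes) and 4859 with array weights (18.81%, against 17.45%), and 1475 (5.71%, against 5.26%) to 2938 (11.38%, against 10.96%) without 1 array. The 368 probes taken as higher and 414 as lower became 182 and 29 with normexp (all probes 0.684% and 0.147%, these 0.705% and 0.112%) and 720 and 847 with no detection filter (1.69% and 1.93%, these 1.95% and 2.29%). They became 331 and 147 among probes detected on all 8 arrays (1.341% and 0.642%, these 1.501% and 0.667%) and 481 and 1032 with array weights (1.67% and 3.31%, these 1.86% and 4.00%). The scaling moved the balance, and it did so in all probes. Quantile normalization gave 458 higher and 278 lower (all probes 1.62% and 0.898%, these 1.77% and 1.08%). The 75th percentile over probes detected on all arrays gave 309 and 486 (1.11% and 1.61%, these 1.20% and 1.88%). That over the deposited probes gave 272 and 538 (1.00% and 1.79%, these 1.05% and 2.08%). Without 1 array the higher count ran from 266 (1.03%, against 0.972% of all probes) to 467 (1.81%, against 1.75%). The lower count ran from 317 (1.23%, against 1.06%) to 689 (2.67%, against 2.18%). The count of groups that do not overlap ran from 1886 (7.30%, against 6.88%) to 3260 (12.6%, against 12.4%) without 1 array, where fewer values must separate. Without vehicle replicates 2 and 3 together, an alternative chosen after seeing the data, 587 were higher (2.29%, against 1.90% of all probes), 715 lower (2.78%, against 2.72%) and 5011 did not overlap (19.5%, against 20.4%). The 121 probes detected on every vehicle and no propofol array became 135 to 365 without 1 array. The scanner's other detection flag, which asks only for a positive and significant signal, put detection at 87.3% with vehicle and 82.6% with propofol. Scaling to the deposited probes moved the zero of the scale and put the median level at −4.69 with vehicle and −4.79 with propofol. The median of the unnamed minus that of the deposited probes was then −2.34 with vehicle and −2.36 with propofol. In the main setting these medians were −3.41 and −1.06 with vehicle and −3.46 and −1.09 with propofol. The difference of ASMM10P010401, −0.0050, was 0.075 under quantile normalization, ran from −0.10 to 0.073 without 1 array and was 0.022 without vehicle replicates 2 and 3. That of ASMM10P037994 was 0.021 under quantile normalization. The median SD of 0.28 ran from 0.20 with normexp to 0.33 with no detection filter. Where no cause is given above, it was not tested. Probes near background limit all detection counts.

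Samples with the same replicate number did not deviate together: the correlations of their deviations from the group means were −0.33, 0.07, −0.11 and 0.22 for numbers 1 to 4. The samples thus share only a number, which is also the position on the slide. With a replicate block, 1481 unnamed probes had an unadjusted p under 0.05 (5.73%, against 5.22% of all probes), 402 were taken as higher (1.56%, against 1.43%) and 466 as lower (1.80%, against 1.57%), and 0 passed the adjusted threshold.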
